A study of Mus musculus with 6 samples.

Results

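Transcripts of 9 genes that serve mucosal immunoglobulin A were compared between oviducts of wild-type and Wt1 heterozygous MF1 mice. The genes were Pigr, Jchain, Ccl28, Ccr10, Ighm, Mzb1, Cd79a, Cd79b and Tnfrsf17. Each probe set whose platform annotation names only 1 of them was taken, which gave 22 of the 45037 probe sets tested: 11 for Ighm, 3 for Ccl28, 2 for Pigr and 1 for each other gene. A further 4 probe sets name Ighm together with other immunoglobulin genes and were not used. Wild-type females carried Wt1 +/+ and heterozygous females Wt1 ko/+, 3 samples each with 1 array per sample. All had been mated with wild-type males, and oviducts were collected at embryonic day 2.5, so both groups were in early pregnancy. The labels give neither the age of the females nor the part of Wt1 that is deleted, nor whether a sample is 1 animal or a pool. P-values therefore describe how far these samples spread, which can be partly technical. Values of 3 arrays are given in the order of replicates 1, 2 and 3.

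Mucosal surfaces are protected by polymeric immunoglobulin A (IgA). Plasma cells beneath the epithelium join IgA units through the J chain, the product of Jchain, and secrete the polymer. The polymeric immunoglobulin receptor, the product of Pigr, binds the J chain polymer at the base of epithelial cells, carries it across and releases it into the lumen with a piece of itself attached. Epithelial cells secrete the chemokine Ccl28, which draws IgA plasma cells bearing its receptor Ccr10. In the female reproductive tract this system is known to respond to sex steroids.

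The regions before the start sites of Pigr, Jchain and Ccl28 are shown because these were the members with a brightest probe set higher in every heterozygous array. RefSeq promoter entries (build GRCm38.p6) were matched for 5 of the 9 genes: Pigr, Jchain, Ccl28, Cd79a and Tnfrsf17. Each run below gives the 250 bases before the start, 5′ to 3′ on the strand of the gene, and capitals mark a match to a searched motif. Pigr lies at chr1:130826434-130826683 (+ strand), Jchain at chr5:88527898-88528147 (- strand) and Ccl28 at chr13:119623569-119623818 (+ strand).
Pigr: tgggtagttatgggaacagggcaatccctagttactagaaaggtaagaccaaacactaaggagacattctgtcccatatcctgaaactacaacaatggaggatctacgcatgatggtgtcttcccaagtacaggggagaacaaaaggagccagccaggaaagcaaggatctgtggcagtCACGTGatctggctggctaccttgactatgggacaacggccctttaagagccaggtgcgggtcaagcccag
Jchain: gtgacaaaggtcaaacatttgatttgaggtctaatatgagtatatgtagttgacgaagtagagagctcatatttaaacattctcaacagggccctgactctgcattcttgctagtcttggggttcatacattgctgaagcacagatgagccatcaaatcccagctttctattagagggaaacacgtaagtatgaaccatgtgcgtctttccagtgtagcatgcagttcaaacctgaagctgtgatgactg
Ccl28: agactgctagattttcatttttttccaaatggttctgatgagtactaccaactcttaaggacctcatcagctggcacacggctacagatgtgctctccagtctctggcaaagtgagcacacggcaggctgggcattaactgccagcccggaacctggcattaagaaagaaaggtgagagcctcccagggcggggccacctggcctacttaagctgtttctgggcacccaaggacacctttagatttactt

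Both strands were searched for the octamer ATGCAAAT of B lineage genes, the E-box CACGTG bound by USF factors, the interferon regulatory factor element GAAANNGAA, the kappa B element GGGANTTCC and the element TGACGTGG bound by XBP1. The Pigr region held 1 E-box, starting 71 bases before the start site. That motif was present in 6.02% of 32851 regions of the same length. The Tnfrsf17 region held 1 interferon regulatory factor element, TTCTGTTTC on the opposite strand, 100 bases before the start, a motif found in 7.13% of regions. None of these motifs was found in the windows of Jchain, Ccl28 and Cd79a. The octamer was present in 1.60%, the kappa B element in 1.43% and the XBP1 element in 0.563% of all regions.

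Tissue identity and array quality were checked first. All 21 oviduct epithelium markers, among them Ovgp1 of secretory cells and Foxj1 of ciliated cells, were brighter in at least 1 genotype than the median probe set (7.31 in log2 units). Wt1 read 4526, 4245 and 3323 in the wild-type arrays against 2253, 2452 and 3468 in the heterozygous ones, so the library labelled heterozygous replicate 3 lay above the lowest wild-type array. The Wt1 difference did not pass over genes (limma log2 change -0.57, adjusted p = 0.771), and whether its probe set lies in the deleted part is not known from the labels. The ratio of 3' to 5' Actb control signals, which rises as RNA degrades, was 5.90 in wild-type replicate 3 and 1.67 to 2.49 elsewhere. Heterozygous replicate 1 and wild-type replicates 2 and 3 had the higher ratios, and changes within these 3 arrays and within the other 3 are given below.

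The epithelial receptor Pigr, the J chain and the chemokine Ccl28 gave 1.65-fold, 1.82-fold and 1.85-fold higher mean signals in heterozygous oviducts at their brightest probe sets, without overlap between the genotypes and without passing the test over all genes. The other 6 members overlapped between the genotypes and had log2 changes from -0.58 to 0.11. Of the 9 genes, 3 had a brightest probe set without overlap between the genotypes, all 3 with the heterozygous arrays above, where 11.8% of 18193 genes showed no overlap in either direction. Of the 22 probe sets, 5 were separated upward, against 4.67% of all probe sets, and 2 downward, against 5.87%. None of the 22 probe sets and none of the 9 genes passed the threshold of 0.05 in limma after Benjamini-Hochberg adjustment, where 0.00666% of all probe sets and 0.0165% of all genes passed. At an unadjusted limma p under 0.05, 5 of the 22 were higher and 0 lower, against 2.25% higher among all probe sets. Over genes, 3 of the 9 were higher at that p, against 2.67% of all genes. These were again Pigr, Jchain and Ccl28, so the counts of separation and of p rest on the same genes. Members were chosen with earlier results of these data known, so the shares over all features give scale and are no test. The median log2 change was 0.067 over the 22 probe sets, and -0.011 over all probe sets. In bulk tissue, a different number of cells of a type and a different RNA content per cell cannot be told apart.

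**Figure D1:**
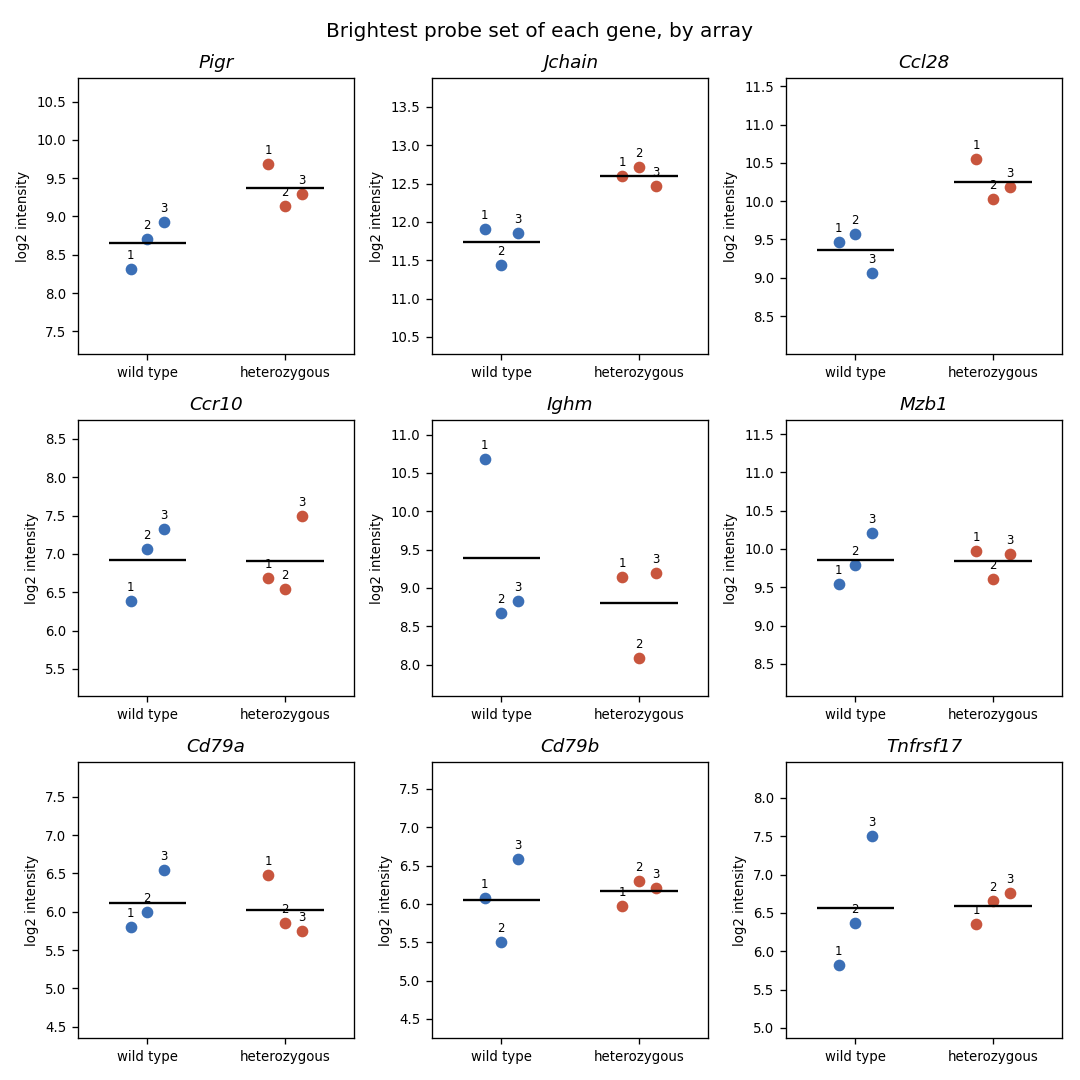
Log2 intensity after quantile normalization (vertical axis) of the brightest probe set of each of the 9 genes, with 1 point per array numbered by replicate and a bar at the mean of 3 arrays; every panel spans the same log2 range. Pigr, Jchain and Ccl28 show no overlap between genotypes, and the other 6 genes overlap.

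Pigr was measured by 2 probe sets, and both were higher in heterozygous oviducts. The brighter one had deposited intensities of 322, 419 and 472 in the wild-type arrays and 825, 573 and 633 in the heterozygous arrays. Every heterozygous value lay above every wild-type value. On the log2 scale it averaged 8.65 ± 0.31 (SD, n = 3) over the wild-type and 9.37 ± 0.28 (SD, n = 3) over the heterozygous arrays, 1.65-fold higher. The log2 change was 0.72 with a limma standard error of 0.24 and a 95% interval of 0.14 to 1.30, and it did not pass (adjusted p = 0.904 over probe sets, exact two-sided permutation p = 0.1). With 3 arrays against 3, 0.1 is the smallest p that the 20 assignments allow.

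The dimmer Pigr probe set read 103, 80.2 and 55.0 in the wild-type and 304, 205 and 336 in the heterozygous arrays. Again the genotypes were fully separated, with the lowest heterozygous array well above the highest wild-type array. Its log2 change was 1.82, with a 95% interval of 1.02 to 2.62, or 3.53-fold, and did not pass (limma adjusted p = 0.525, exact permutation p = 0.1). Its wild-type mean of 6.27 was dimmer than the median probe set. The change at the dimmer probe set exceeded that at the brighter one by 1.10 on the log2 scale (exact permutation p = 0.1, 0.175 after adjustment over 7 such differences of changes). Among the 3 arrays with lower and the 3 with higher Actb ratios the change was 0.90 and 0.87 at the brighter probe set, and 1.26 and 2.24 at the dimmer one.

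Jchain, which encodes the subunit that Pigr recognises, was among the brightest probe sets of the array, at the 97.4th percentile of mean level. It read 3802, 2752 and 3843 in the wild-type arrays and 6367, 6578 and 5474 in the heterozygous arrays. The heterozygous arrays were close to each other and all above the wild-type ones. The log2 level averaged 11.73 ± 0.26 (SD, n = 3) over the wild-type and 12.60 ± 0.12 (SD, n = 3) over the heterozygous arrays, 1.82-fold higher. The log2 change of 0.86, with a 95% interval of 0.41 to 1.32, did not pass over probe sets (limma adjusted p = 0.672) or over genes (adjusted p = 0.501), with an exact permutation p of 0.1. It was 0.69 among the arrays with lower and 0.96 among those with higher Actb ratios, and 0.71 to 0.95 when each array was left out in turn.

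The brightest Ccl28 probe set, for the epithelial ligand, read 712, 767 and 520.2 in the wild-type and 1508, 1049 and 1154 in the heterozygous arrays. The genotypes did not overlap. The average was 9.37 ± 0.27 (SD, n = 3) over the wild-type and 10.25 ± 0.26 (SD, n = 3) over the heterozygous arrays, 1.85-fold higher. Its log2 change was 0.89 with a 95% interval of 0.34 to 1.43 (limma adjusted p = 0.768 over probe sets and 0.512 over genes, exact permutation p = 0.1). Both other Ccl28 probe sets were dim and overlapped between the genotypes, at log2 changes of 0.66 and 1.33. Without wild-type replicate 2 these were 0.21 and 0.60, whereas the bright probe set ranged from 0.73 to 1.00 when single arrays were left out. Among the arrays with lower and higher Actb ratios the bright probe set gave 0.64 and 1.23.

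Ccr10, the receptor for Ccl28, was measured by 1 dim probe set. It read 80.1, 134 and 158 in the wild-type and 98.3, 94.1 and 189 in the heterozygous arrays, with full overlap. The log2 change was -0.018 with a 95% interval of -0.90 to 0.87 (limma adjusted p = 0.997). The upper end of that interval lies just under the 0.89 of the brightest Ccl28 probe set. The difference between the changes of ligand and receptor was 0.90 on the log2 scale, with overlap of the genotypes (exact permutation p = 0.2, 0.28 after adjustment).

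**Figure D2:**
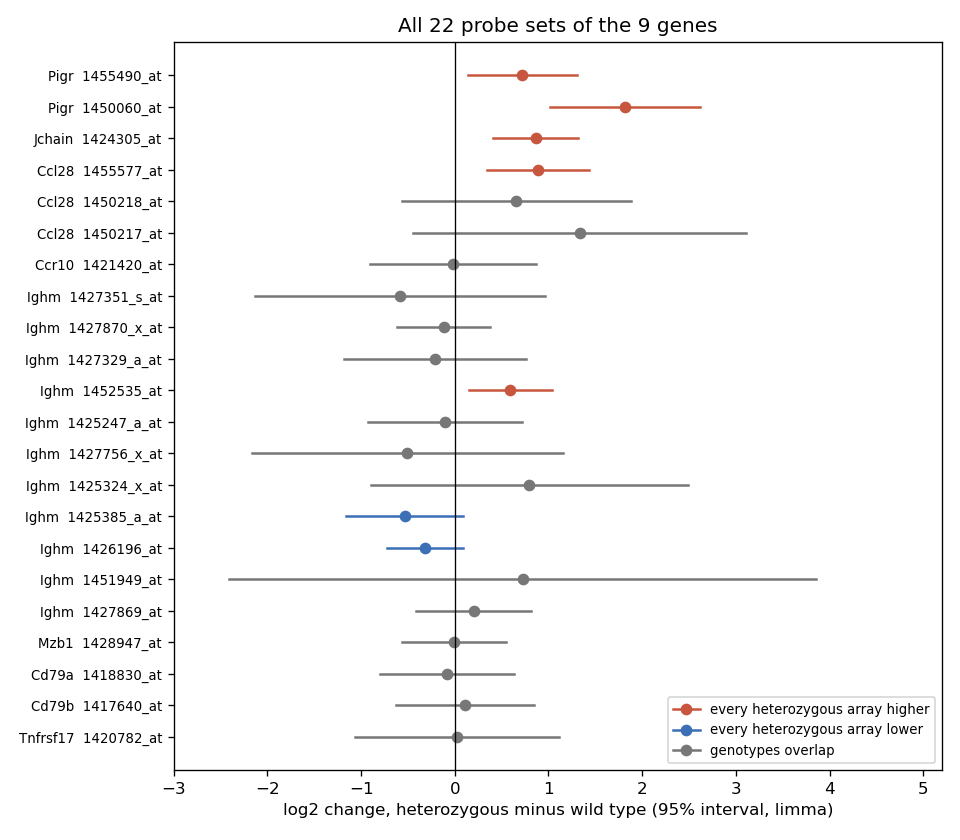
Log2 change, heterozygous minus wild type, with the 95% interval of the limma fit (horizontal axis) for each of the 22 probe sets; red marks probe sets higher in every heterozygous array, blue those lower in every heterozygous array and grey those that overlap. Both Pigr probe sets, Jchain, 1 of 3 Ccl28 and 1 of 11 Ighm probe sets are red, and 2 Ighm probe sets are blue.

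Mzb1 encodes a chaperone partner of the endoplasmic reticulum that assists immunoglobulin assembly in plasma cells and marginal zone B cells. Its probe set was bright and read 751, 893 and 1166 in the wild-type and 1013, 784 and 979 in the heterozygous arrays. The values interleaved, and the log2 change was -0.010 with a 95% interval of -0.57 to 0.54 (limma adjusted p = 0.997). The upper end of that interval lies under the 0.86 of Jchain, whose own 95% interval of 0.41 to 1.32 overlaps it. The difference between the Jchain and Mzb1 changes was 0.87 on the log2 scale, without overlap of the genotypes (exact permutation p = 0.1, 0.175 after adjustment).

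Tnfrsf17, a receptor through which plasma cells receive survival signals, read 53.6, 83.3 and 178 in the wild-type and 78.2, 102 and 116 in the heterozygous arrays. Heterozygous values lay inside the wild-type range. The log2 change was 0.025 with a 95% interval of -1.06 to 1.11. It was 0.49 without wild-type replicate 3, which had the highest value and the highest 3' to 5' ratio, and -0.35 without wild-type replicate 1.

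Cd79a and Cd79b encode the signalling pair of the B cell receptor. Cd79a read 52.8, 64.0 and 93.5 in the wild-type and 85.2, 58.8 and 57.6 in the heterozygous arrays, a log2 change of -0.086 with a 95% interval of -0.80 to 0.63. Cd79b read 64.2, 45.5 and 96.3 against 60.5, 79.6 and 79.8, a log2 change of 0.11 with a 95% interval of -0.62 to 0.84. For both the genotypes overlapped, and both lay at about the 32nd to 33rd percentile of mean level. The Jchain change exceeded that of Cd79a by 0.95 and that of Cd79b by 0.75 on the log2 scale, each without overlap (exact permutation p = 0.1, 0.175 after adjustment). Against Tnfrsf17 the difference was 0.84 with overlap (exact permutation p = 0.3).

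Ighm, the heavy chain of IgM, which also forms polymers with the J chain, was covered by 11 probe sets that disagreed. Of these, 4 were higher and 7 lower in heterozygous oviducts, from -0.58 to 0.80 on the log2 scale. The mean over its probe sets was a log2 change of -0.0053 (limma standard error 0.22, adjusted p = 0.998 over genes). The brightest one read 1664, 408 and 441 in the wild-type and 559, 279 and 594 in the heterozygous arrays. Wild-type replicate 1 alone was high, and without it the log2 change of that probe set went from -0.58 to 0.060. The same array was the highest at the probe set 1427329_a_at, with 749 against 278 to 449 in the others.

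A single Ighm probe set, 1452535_at, was separated upward. It read 169, 234 and 169 in the wild-type and 273, 306 and 290.1 in the heterozygous arrays, a log2 change of 0.59 with a 95% interval of 0.15 to 1.03 (limma adjusted p = 0.865). A pair of dim Ighm probe sets were separated downward, at -0.53 and -0.32. Immunoglobulin genes share sequence, so probe sets of this family may read transcripts of relatives, and which transcript each of them measured was not tested.

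Other immunoglobulin genes were higher in most cases. Of 18 heavy, light and surrogate light chain genes, each by its brightest probe set, 15 were higher and 3 lower, with a median log2 change of 0.72, where 45.0% of all genes were higher with a median of -0.027. Separation upward was seen in 6 and downward in 0, where 909 and 1232 of all 18193 genes were so separated. Over genes in limma 0 passed, with 7 at an unadjusted p under 0.05, all higher, against 2.67% higher among all genes. The mean deviation of the 18 genes per array was -0.12, -0.56 and -0.42 in the wild-type and 0.51, 0.25 and 0.34 in the heterozygous arrays. Their summed intensity overlapped, at 9561 to 16172 in wild-type and 15938 to 21342 in heterozygous arrays. Only 5 of the 18 were brighter in either genotype than the median probe set.

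Igha, the constant region of IgA, was the brightest of them. Its brightest probe set read 5953, 5925 and 8555 in the wild-type and 9713, 11004 and 8722 in the heterozygous arrays. The genotypes did not overlap, although heterozygous replicate 3 was only slightly above wild-type replicate 3. The log2 change was 0.60 (limma standard error 0.16, 1.51-fold, adjusted p = 0.559 over genes, exact permutation p = 0.1). Its other probe sets, both of a kind that can cross-hybridize, gave 0.72 and 0.61, also without overlap. The Jchain change exceeded that of Igha by 0.26, with overlap between the genotypes (exact permutation p = 0.3).

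Among the light chain genes, Iglv1 of the lambda locus had a log2 change of 1.24 at its brightest probe set and 0.70 and -0.23 at the others. Igkv9-120 of the kappa locus had 1.10, with overlap, and 0.45 and 0.94 at its others. Without heterozygous replicate 1, the highest array, it was 0.62, and among the arrays with lower and higher Actb ratios it was -0.18 and 2.45. Ighg3, the constant region of IgG3, stood at -0.22 with overlap. Igk, named here after its values were seen because the family rule did not take it, had a log2 change of 0.54 at its brightest probe set, separated upward, and 0.39 to 1.05 at its other probe sets, which overlapped.

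**Figure D3:**
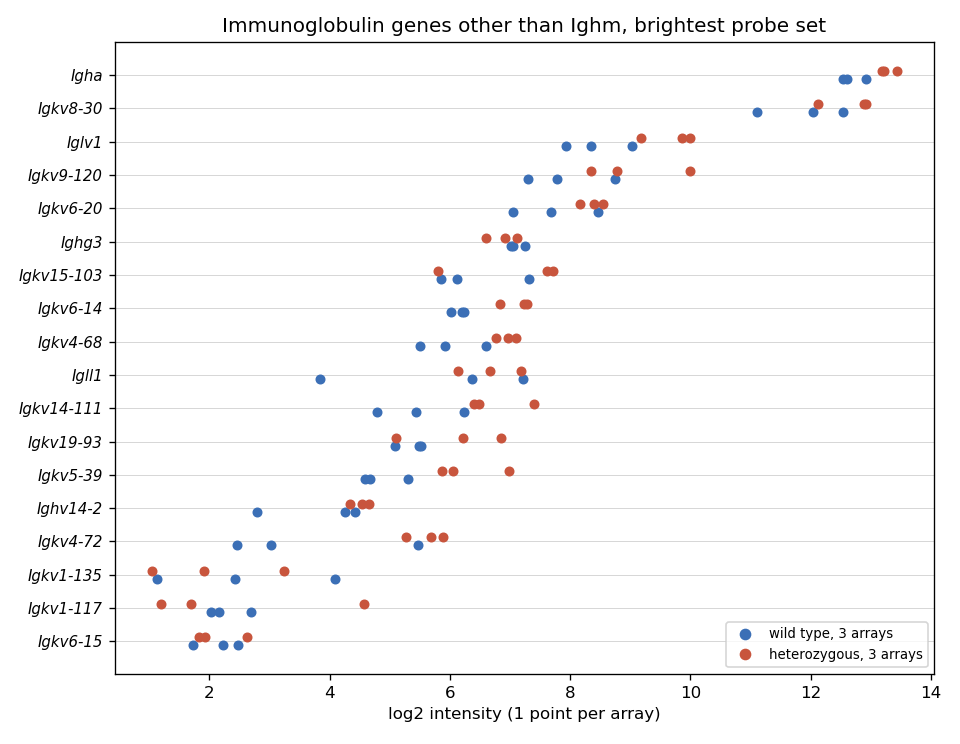
Log2 intensity (horizontal axis) in each of 3 wild-type (blue) and 3 heterozygous (red) arrays for the brightest probe set of 18 immunoglobulin genes other than Ighm, ordered by wild-type mean. The 3 red points of Igha all lie to the right of its 3 blue points, as do those of Iglv1, Igkv6-14, Igkv4-68, Igkv14-111 and Igkv5-39.

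Genes listed for transcytosis and for control of Pigr showed no common direction. In the list of IgA transcytosis and Pigr control, 14 of 29 measured genes were higher and the median was -0.012. Irf1, a transcription factor downstream of interferon, and Relb, a subunit of NF-kappa B, stood at 0.32 and 0.60, and Irf1 did not overlap. Ap1b1, an adaptor of vesicle sorting, stood at 0.37, also without overlap. Fcgrt, the neonatal Fc receptor, stood at 0.21 and Rab11a, a GTPase of recycling endosomes, at 0.13. None of the 29 passed over genes in limma (adjusted p of at least 0.815 for these 5 genes). Of the 29, 3 were separated upward and 0 downward, where 909 and 1232 of all 18193 genes were so separated.

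In the plasma cell differentiation and secretion list, 16 of 25 genes were higher, with a median of 0.057, and 0 passed. Of the 25, 3 were separated upward and 1 downward, where 909 and 1232 of all 18193 genes were so separated. Prdm1, which drives plasma cell formation, read 437, 353 and 341 in the wild-type and 495, 479 and 520.1 in the heterozygous arrays. That is a log2 change of 0.39 without overlap (limma standard error 0.13, adjusted p = 0.698). Xbp1, a regulator of secretory capacity, was bright in both genotypes and stood at 0.032, with -0.16 to 0.14 at its other probe sets. Tnfrsf13b, a receptor for the survival factors BAFF and APRIL, stood at 0.48 and Pim2, a survival kinase, at -0.30, both without overlap.

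Markers of B cells gave 17 of 26 genes higher, with a median of 0.081 and 0 past the threshold. Ms4a1, which encodes CD20, stood at 0.17 and Pax5, the B lineage factor, at 0.26, whereas Cd22, an inhibitory receptor, stood at -0.72 and Blnk, an adaptor, at -0.24. All 4 overlapped between the genotypes, and the other Pax5 and Cd22 probe sets gave -1.32 and 0.61. In the whole list 2 genes were separated upward and 2 downward, and 2 were higher and 1 lower at an unadjusted limma p under 0.05. Of all 18193 genes, 909 were separated upward and 1232 downward, and 485 were higher and 686 lower at that p. The smallest p of the list was that of Btk, a kinase of B cell receptor signalling. It was dimmer than the median probe set and is named here after its values were seen. Btk read 55.6, 58.1 and 48.4 in the wild-type and 96.0, 115 and 131 in the heterozygous arrays, a log2 change of 1.04 without overlap (limma adjusted p = 0.245 over genes). The B cell score overlapped too, at -0.17 to 0.11 in wild-type and 0.016 to 0.028 in heterozygous arrays, and 11 of the 26 genes were brighter in either genotype than the median probe set.

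Signals for class switching and survival gave 9 of 18 genes higher, with a median of -0.013. Only 6 of the 18 were brighter in either genotype than the median probe set. Tnfsf13b, which encodes BAFF, stood at 0.14. Tgfbr2, a receptor of the IgA switch factor TGF-beta, stood at 0.23. Its other, dimmer probe sets gave -1.57 without overlap and 0.96 with overlap. Il6ra stood at -0.41, and at 0.48 at its other probe set. In this list 2 genes were separated upward and 1 downward, where 909 and 1232 of all 18193 genes were. Il6 and Il21r, both dimmer than the median probe set, are named here after their values were seen. They stood at 1.22 and -1.37, each without overlap. In the homing list 9 of 17 genes were higher, with a median of 0.014, and 2 were separated upward and 2 downward. Itgal, an integrin of lymphocyte arrest, stood at 0.58 without overlap, and at -0.069 with overlap at its other probe set. Itgb1 stood at 0.93 with overlap. Without wild-type replicate 3, the lowest Itgb1 array and the one of highest Actb ratio, Itgb1 stood at 0.46, and with the ratio as covariate at 0.40. Cxcl13, the ligand that gathers B cells in follicles, stood at -0.43 without overlap, and at -0.063 at its other probe set. Ccl25, the gut counterpart of Ccl28, stood at 0.014 and Ccr3, another receptor for Ccl28, at -0.23 at very low levels. No gene of either list passed over genes in limma (lowest adjusted p of the named genes, 0.459 at Il21r).

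Markers of other cell types and tissues were compared in the same way, and in 3 lists the score per array (the mean log2 deviation of the genes) was higher in each heterozygous array, as for Pigr, Jchain, Ccl28 and Igha. Of all 18193 genes, 45.0% were higher, and 909 were separated upward and 1232 downward. Granulocyte and mast cell markers were higher in 12 of 16 genes, with a median of 0.46, and 6 were separated upward and 1 downward. Their summed intensity was 12353 to 14945 in wild-type and 16943 to 20308 in heterozygous arrays. S100a8 and S100a9, the calprotectin subunits of neutrophils, stood at 4.24 and 3.76, and Mpo at 1.11, all without overlap. Smooth muscle, fat and mesothelium markers were higher in 16 of 19 genes, with a median of 0.54 and a summed intensity of 31273 to 39760 against 37117 to 51161. Of the 19, 10 were separated upward and 0 downward. Myh11 of smooth muscle stood at 0.58 and Adipoq, Fabp4 and Car3 of fat at 2.08, 1.48 and 2.22, with Lrrn4 of mesothelium at 0.84. Other Fabp4 probe sets gave 2.37 without overlap, and 0.20 and -0.084 with overlap. Those of Car3 gave 0.95 without overlap, and 0.63 and 0.55 with overlap.

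Uterine gland and mucosal secretion markers were higher in 11 of 13 genes, with a median of 0.21 and a summed intensity of 31914 to 42027 in wild-type and 38845 to 46768 in heterozygous arrays. Of the 13, 6 were separated upward and 0 downward, where 909 and 1232 of all 18193 genes were so separated. Cxcl15, a chemokine of glands, stood at 2.50, Slpi, a secreted protease inhibitor, at 0.66, Agr2, a mucin folding enzyme, at 0.38 and Foxa2, a gland transcription factor, at -0.063. The scores of these 3 lists did not overlap between the genotypes. Their summed intensities overlapped for the muscle, fat and mesothelium list and for the uterine list. Ltf is listed both as a granulocyte and as a uterine marker, so those lists are not fully distinct. No gene of the 3 lists passed over genes in limma, and Cxcl15 had the lowest adjusted p of those named (0.062). The Cxcl15 call depended on the setting, since it passed in 5 of 16 alternatives, with limma adjusted p from 0.0040 with trend and robust to 0.609 with the replicate block. No marker intensity was 0 in any of these arrays, but without detection calls a value above 0 does not show that a transcript was present. Whether granulocytes, muscle, fat or uterine tissue had a part in the higher Pigr, Jchain, Ccl28 and immunoglobulin signals was not tested.

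Lymphocyte, macrophage and epithelial scores overlapped between the genotypes. Of 20 T and natural killer cell genes 10 were higher, with a median of -0.011 and a summed intensity of 3426 to 4774 in wild-type and 2906 to 3793 in heterozygous arrays. Only 4 of the 20 were brighter in either genotype than the median probe set, and Cd3e and Cd3d were not among them. Cd3e and Cd3d, of the T cell receptor complex, stood at -0.53 and 0.22, Cd8a at -0.35, Lat at -0.38 and Zap70 at -0.94. Zap70 read 106 in heterozygous replicate 1 and 581 to 919 in the other arrays, and without that array its log2 change was -0.018. Its other probe sets gave -0.12 and 0.040. Of 20 macrophage and dendritic cell genes 14 were higher, with a median of 0.10, and a summed intensity of 12084 to 15797 against 13692 to 16692. Adgre1 and Csf1r stood at -0.057 and 0.073, Mrc1 at 0.35, Mertk at 0.45 and Ccr2 at 0.79. The other Ccr2 probe sets gave 0.026, 0.48 and 1.51, and every Ccr2 probe set overlapped. In the epithelial list 12 of 21 genes were higher, with a median of 0.017, and 1 was separated upward and 3 downward. At an unadjusted limma p under 0.05, 0 were higher and 1 lower. Of all 18193 genes, 909 were separated upward and 1232 downward, and 485 were higher and 686 lower at that p. Ovgp1, the oviduct glycoprotein, stood at 0.058, Foxj1 and Tppp3 of ciliated cells at -0.31 and -0.27, and Cldn4, a tight junction protein, at -0.64.

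**Figure D4:**
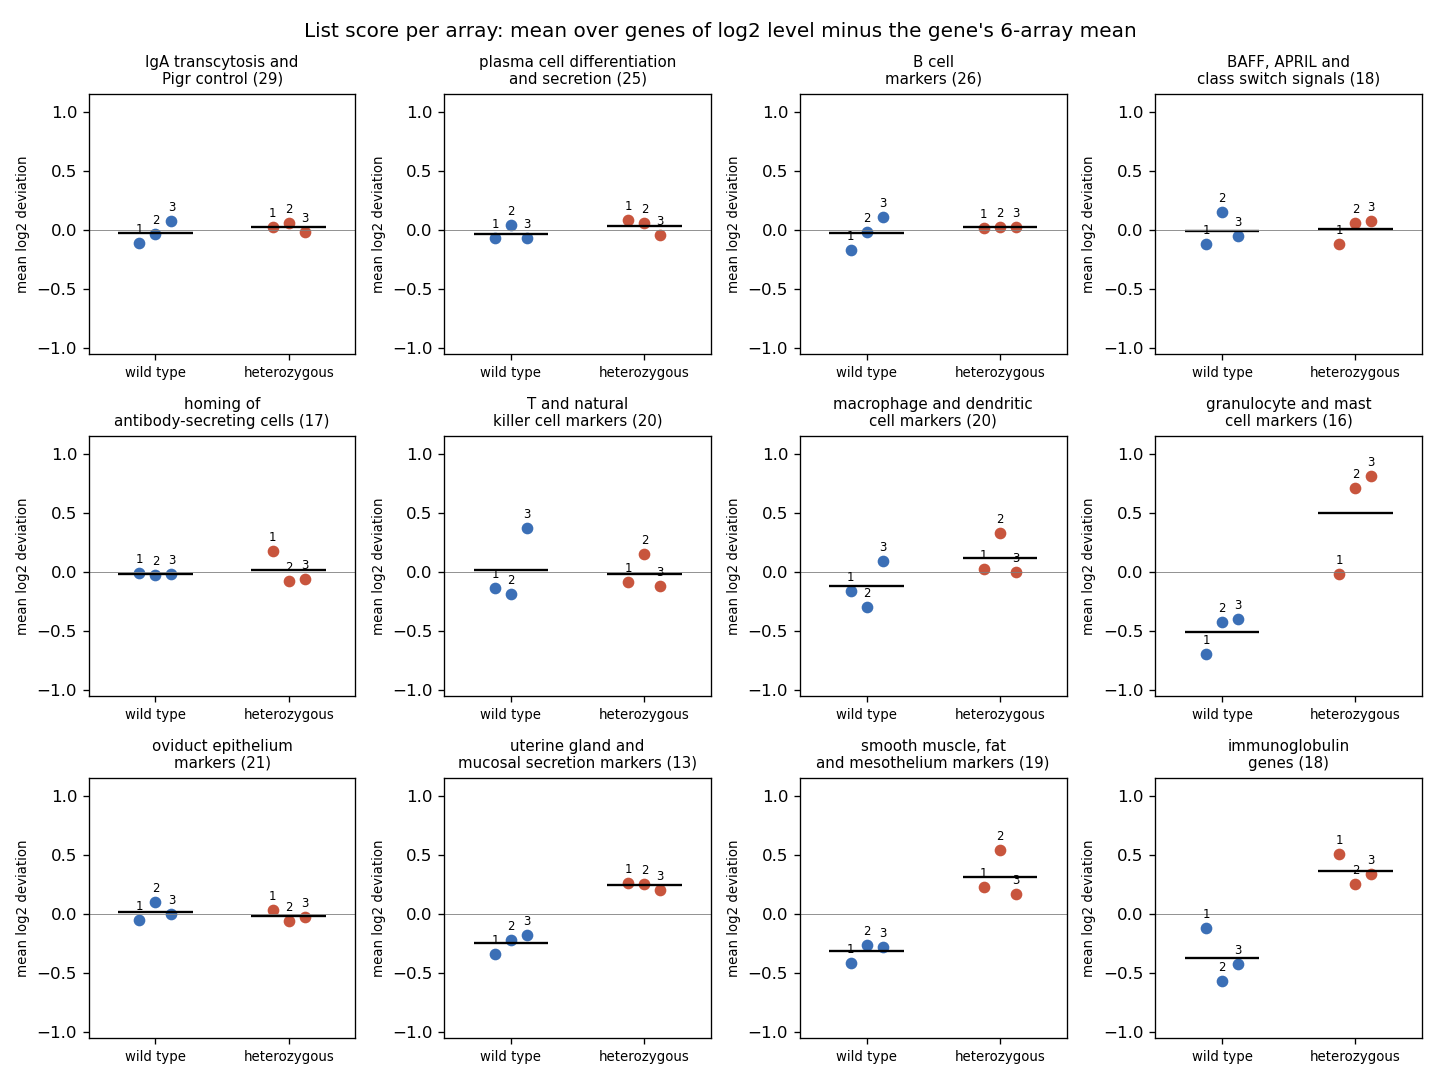
Score per array for each list (vertical axis, mean over genes of the log2 level minus its mean over 6 arrays), with 1 point per array numbered by replicate, a bar at the mean of 3 arrays and the number of measured genes in brackets. The immunoglobulin, granulocyte, uterine gland and smooth muscle, fat and mesothelium panels show no overlap between the genotypes, and the other 8 panels overlap.

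Genes whose levels followed the members most closely over the 6 arrays were taken from 11710 genes brighter on average than the median probe set. For Pigr these were Auh, Mgst2 and Cd83, with Pearson correlations of 0.984, 0.981 and 0.981. For Jchain they were Cavin2, Sh3rf1 and Ncoa7, at 0.991, 0.987 and 0.987, and for the brightest Ighm probe set Adgrl2, Abhd3 and Zfp74, at 0.987, 0.984 and 0.980. These are descriptions over 6 arrays, and 79, 142 and 67 genes had a correlation above 0.9 with Pigr, Jchain and Ighm. For Pigr and Jchain the arrays share the genotype difference. For Ighm, wild-type replicate 1 alone was high, at 1664 against 279 to 594 in the others, and that array weighs heavily in the correlations.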

How the data were processed

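Biotin-labelled cRNA from 1 µg of total RNA per sample was hybridised to 1-colour 3' expression arrays, per the labels. The authors deposited linear intensity values, 1 per probe set and array. Their mean after trimming 2% at each end was 500.002 in every array, so they had been scaled. The program that did so was not given in the sources used. No detection calls were used, and the number of arrays limits the precision. After removal of 64 control probe sets, intensities under 1 were set to 1, log2 transformed and quantile normalized, since array medians differed by 0.147. Intensities in the text are as deposited; log2 values are normalized. Of the probe sets, 34945 had 1 gene symbol, 932 several and 9160 none; a gene is represented by its probe set of highest mean.

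Differences were fitted with limma 3.58.1 in R 4.3.3 over all 45037 probe sets and over 18193 genes, two-sided. Scripts were tested on simulated data. Members and lists were chosen with earlier results of these data known. Named genes were all members and, per list, the first 2 written and the 3 of smallest p whose higher group mean exceeded the median of all probe sets. Likeness was taken for Pigr, Jchain and Ighm, with 3 genes each. Alternatives tried were leaving out each array, the scaling as deposited, array weights, log2 of the intensity plus 16, a minimum level, a variance trend with robust eBayes, the Actb 3' to 5' ratio, other probe set choices and the replicate number as a block.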

Additional observations from a re-analysis of the deposited data

How the results depend on the processing

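The counts of member probe sets and of member genes past the threshold were 0 under all alternatives run. The changes of both Pigr probe sets, Jchain, the 3 Ccl28 probe sets and Ighm 1452535_at kept their sign in all alternatives run. The brighter Pigr probe set ranged from 0.55 to 0.94, the dimmer one from 1.57 to 2.05, Jchain from 0.71 to 1.08, the brightest Ccl28 probe set from 0.71 to 1.00 and Igha from 0.52 to 0.71.

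The count of genes past the threshold, 3, was 7 with array weights, 2 with log2 of the intensity plus 16 and 1 with the filter on dim probe sets or with trend and robust. It was 0 with the 3' to 5' ratio as covariate or as block, without probe sets ending in _s_at or _x_at, with the replicate block, and 0 to 0 when each array was left out. The count of probe sets, 3, was 14 with array weights, 1 with the filter or the intensity plus 16, 2 with the deposited scaling, 0 with the replicate block or either use of the 3' to 5' ratio, and 0 to 1 when each array was left out. The replicate numbers did not pair the samples: the deviations of same-numbered arrays correlated at -0.16, -0.023 and -0.092.

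Some changes turned sign, large ones included. Some alternatives read other probe sets, as named below, and for the rest the cause was not tested. With the deposited scaling Ccr10 stood at 0.014, Xbp1 at -0.041 and Ovgp1 at -0.025. With the 3' to 5' ratio as covariate Ccr10 stood at 0.19, Mzb1 at 0.21, Cd79a at 0.22, the Ighm probe sets 1427870_x_at and 1425247_a_at at 0.059 and 0.25, Xbp1 at -0.017, Ccr3 at 0.031 and Adgre1 at 0.021. With the ratio as block Ccr10 stood at 0.061, Mzb1 at 0.10, Cd79a at 0.10, Ighm 1425247_a_at at 0.10 and Ccr3 at 0.42. Cd3e stood at 0.019 with array weights and Ccr3 at 0.068 with the intensity plus 16. Without cross-hybridizing probe sets another probe set stood for each of Cd8a and Iglv1, at 0.55 and -0.23. That of Iglv1 was dim, with intensities of 2.27 to 66.0. With each gene's probe sets averaged Pax5 stood at -0.53, Tgfbr2 at -0.13, Il6ra at 0.035 and Cd8a at 0.17.
When each array was left out in turn, the values that turned sign ranged from -0.95 to 0.060 for Ighm 1427351_s_at, -0.49 to 0.20 for Ighm 1427329_a_at, -0.35 to 0.49 for Tnfrsf17, -0.31 to 0.18 for Ccr10, -0.16 to 0.37 for Cd79b, -1.29 to 0.60 for Ccr3, -0.064 to 0.12 for Ccl25, -0.25 to 0.73 for Cd3d, -0.015 to 0.21 for Csf1r, -0.15 to 0.035 for Foxa2, -0.22 to 0.017 for Ighm 1427870_x_at, -0.32 to 0.17 for Ighm 1425247_a_at, -0.16 to 0.17 for Mzb1, -0.31 to 0.13 for Cd79a, -0.015 to 0.075 for Xbp1, -0.15 to 0.039 for Adgre1, -0.22 to 1.87 for Ighm 1451949_at, -0.97 to 0.24 for Ighm 1427756_x_at and from -0.91 to 0.13 for Cd3e.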
